A study of Mus musculus with 6 samples.

Results

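The 4 antigen receptor loci of the mouse were examined for contact with the nuclear lamina in mouse embryonic fibroblasts (MEFs), cells of connective tissue that do not rearrange these genes. The loci are Igh (immunoglobulin heavy chain), Igk (immunoglobulin kappa light chain), Tcrb (T cell receptor beta) and Tcra/d (T cell receptor alpha with delta nested in it). Each was taken as a fixed window of the mm9 genome build: Igh chr12:114400000-117300000, Igk chr6:67500000-70700000, Tcrb chr6:40800000-41550000 and Tcra/d chr14:53000000-54900000. The windows are given by coordinates alone, although the loci were picked with earlier results of these data known. They hold 24357 of the 6581229 fragments between neighbouring GATC sites, with 8240 in Igh, 9323 in Igk, 2017 in Tcrb and 4777 in Tcra/d. The 1 Mb on either side of each window, 20529 fragments in all, served as its flanks.

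Lamina contact was measured by DamID. A bacterial adenine methyltransferase (Dam) fused to a lamin marks GATC sites near the lamina, and cells that express Dam alone give the background. All cells were wild-type MEFs of the C57BL/6 strain given an shRNA by lentivirus. After puromycin selection they were transduced with Dam or with a Dam fusion. A library of Dam alone and a library of the fusion were paired for each shRNA target, which gives 3 maps from 6 libraries, named here by the target. Dam-LmnB1 was the fusion for LmnA RNAi and for LmnC RNAi, and the LmnB1 RNAi map used Dam-LmnA, so that in the last map the shRNA target and the fusion cannot be told apart. The LmnB1 target comes from the descriptions and Dam-LmnA from the titles, since the treatment protocol mentions LmnA and LmnC as targets and Dam-Lamin B1 as the fusion. All groups carry an shRNA, and a map of cells without one was not analysed here. No group had a replicate, no test was possible, and every difference below is a difference between these maps. RNA was not measured, so neither the depletion of each lamin nor the absence of receptor transcripts was checked.

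An antigen receptor locus holds an array of variable (V) segments, a short cluster of joining (J) and in some loci diversity (D) segments, and constant (C) genes. In developing lymphocytes the RAG recombinase joins V, J and in some loci D segments. In cells of other lineages the loci are generally silent, and Igh and Igk are textbook examples of loci that lie at the nuclear periphery outside the B lineage. Genomic stretches that touch the lamina over long distances are called lamina-associated domains (LADs). The RefSeq table used here is of another build (GRCm38.p6), so it gave names, counts and gene order but no positions. It names 183 Ighv segments (63 of them pseudogenes), 162 Igkv (60 pseudogenes), 35 Trbv (13 pseudogenes) and 130 Trav segments (16 pseudogenes). In coordinate order it places the Igh constant genes at the low end and the V array above them. In Igk, Tcrb and Tcra/d it places the V array at the low end and the joining segments and most constant genes at the high end. Igh and the other loci thus run in opposite directions along the chromosome.

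The signal is the deposited log2 ratio of fusion over Dam-only reads for each fragment, averaged with fragments weighted by their length. Means are also given for bins of 50 kb. An SD over bins describes variation along the chromosome, and an SE over fragments describes the scatter of fragments within 1 map. Neither is an error between samples.

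The antigen receptor loci lay mostly in LADs in all 3 maps, and the immunoglobulin loci almost wholly. By length, LADs covered 97.2% of Igh after LmnA RNAi, 97.1% after LmnC and 97.5% after LmnB1 RNAi. For Igk the shares in the same order were 98.8%, 100% and 99.98%. Tcrb was covered to 93.2%, 89.0% and 90.8%. Tcra/d was the least covered, with 83.7%, 81.0% and 83.7%. Over all placed chromosomes LADs covered 67.9%, 58.9% and 59.8%.

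Counted in bins, 57 of the 58 bins of Igh, 63 of 64 of Igk, 13 of 15 of Tcrb and 31 of 38 of Tcra/d lay in LADs of all 3 maps, against 54.9% of the 51168 bins of the genome. Bins in LADs of no map numbered 1 in Igh, 0 in Igk, 1 in Tcrb and 6 in Tcra/d, against 29.9% in the genome. Bins in LADs of 1 or 2 maps, those where the calls differ between maps, numbered 0, 1, 1 and 1, against 15.2%. A bin was counted as in a LAD where over 50% of its fragment length was. In single maps, 165, 165 and 166 of the 175 locus bins were in LADs after LmnA, LmnC and LmnB1 RNAi, against 67.9%, 58.9% and 59.9% of all bins. Bins with a mean above 0 numbered 167, 163 and 165 of 175, against 66.0%, 51.9% and 58.1%.

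The mean log2 ratio of Igh was 2.55 (SD over 58 bins 0.70) after LmnA RNAi, 2.05 (0.79) after LmnC and 2.13 (0.77) after LmnB1 RNAi. For Igk it was 2.52 (0.64, 64 bins), 1.95 (0.56) and 2.09 (0.57). Both immunoglobulin loci were high in every map, and they differed from each other by less than 1 SD over bins. Tcrb had means of 2.35 (1.43, 15 bins), 1.33 (1.41) and 1.47 (1.40). Tcra/d had means of 2.02 (1.50, 38 bins), 0.95 (1.63) and 1.13 (1.62). The T cell receptor loci had lower means and a wider spread along the chromosome.

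**Figure D1:**
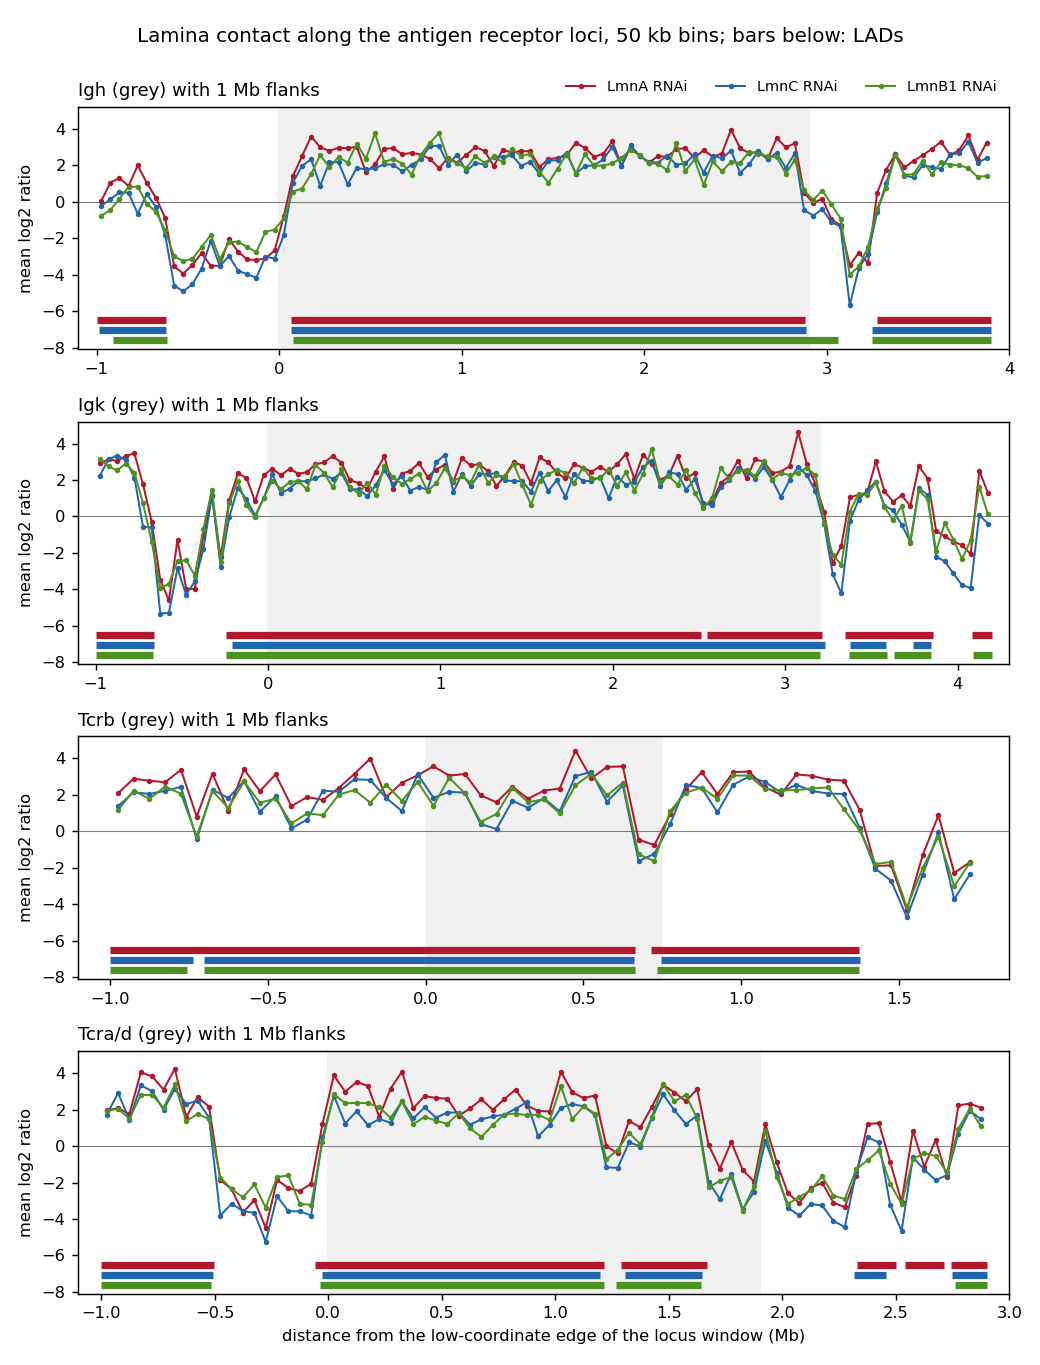
Mean log2 ratio in 50 kb bins (y axis) against distance from the low-coordinate edge of each window in Mb (x axis), for the 4 loci (grey) and 1 Mb either side, with 1 line per map and the LADs of that map as bars below. Igh and Igk stand as plateaus of about 2 to 3 with bins below 0 and further LADs in the flanks on both sides, whereas Tcrb continues from a LAD in its low flank, and both T cell receptor loci fall below 0 near their high-coordinate end.

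Igh was a single LAD in each map, and its edges lay close to those of the window. The LAD ran over chr12:114462538-117281500 after LmnA RNAi and chr12:114466146-117283324 after LmnC RNAi, 2.82 Mb in both. After LmnB1 RNAi it was chr12:114472976-117462538, 2.99 Mb long, and reached past the high end of the window. The low-end border, on the side on which RefSeq orders the constant genes, fell within 10.4 kb in the 3 maps. It lay 62.5, 66.1 and 73.0 kb inside the window. The high-end border, on the side on which RefSeq orders the V segments, differed by 181 kb between maps.

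The lowest 50 kb bin of Igh was the first of the window in each map, with -0.81 ± 0.39 (SE over 124 fragments) after LmnA RNAi, -1.85 ± 0.39 after LmnC and -0.91 ± 0.39 after LmnB1 RNAi. It was the only Igh bin outside LADs in all 3 maps. At the low-end border the mean over the 50 kb inside exceeded that over the 50 kb outside by 3.74, 3.59 and 1.98. The median step over all LAD borders was 2.78, 2.86 and 2.61, so that the Igh step was above the median in the Dam-LmnB1 maps and below it in the LmnB1 RNAi map. Such steps are a description, since the borders may have been drawn from this same signal.

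Above its low-end border the signal of Igh was even. When the window was divided into 10 equal parts along the chromosome, the first part had means of 2.00 ± 0.20, 0.98 ± 0.22 and 0.98 ± 0.18 (SE over 845 fragments) after LmnA, LmnC and LmnB1 RNAi. The other parts ranged from 2.43 to 2.91 after LmnA RNAi, from 1.81 to 2.44 after LmnC RNAi and from 1.98 to 2.74 after LmnB1 RNAi. Over the 57 bins in LADs of all maps the SD was 0.54, 0.60 and 0.66, and the median SE of a single bin was 0.49, 0.47 and 0.46. Most bins of the plateau were therefore not ranked beyond these errors. The highest bin also differed between maps, at chr12:116850001-116900000 with 3.96 ± 0.60 after LmnA RNAi, chr12:116300001-116350000 with 3.08 ± 0.47 after LmnC RNAi and chr12:114900001-114950000 with 3.75 ± 0.58 after LmnB1 RNAi.

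Igk had the smallest SD over bins of the 4 loci in each map. Over bins in LADs of all maps alone, this held after LmnC and LmnB1 RNAi. After LmnA RNAi Igh then had 0.54 and Igk 0.59. After LmnC RNAi 1 LAD of 3442 kb, chr6:67289744-70731863, covered all of the window, and after LmnB1 RNAi 1 LAD of 3445 kb, chr6:67254516-70699581, covered all but its last 0.42 kb. After LmnA RNAi the LAD was in 2 pieces, chr6:67253681-70009387 and chr6:70048444-70711478. The 39.1 kb between them, in the part of the window nearer to the joining and constant segments in RefSeq order, had a mean of 0.08 ± 0.54 after LmnA RNAi, 0.61 ± 0.41 after LmnC and 0.16 ± 0.33 after LmnB1 RNAi (SE over 127 fragments). The stretch was thus low in all 3 maps, and the maps did not differ there by more than these errors, although 1 map alone lists it as a gap.

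The lowest Igk bins lay in and beside that stretch. At chr6:70000001-70050000 the means were 0.62 ± 0.47, 0.72 ± 0.33 and 0.48 ± 0.36 (158 fragments), the lowest of the locus after LmnA and LmnB1 RNAi. The next bin, chr6:70050001-70100000, was the lowest after LmnC RNAi with 0.62 ± 0.39, beside 0.79 ± 0.53 after LmnA RNAi and 1.00 ± 0.45 after LmnB1 RNAi. No Igk bin had a mean below 0 in any map. The highest bins were chr6:70550001-70600000 with 4.61 ± 0.56 after LmnA RNAi, chr6:68500001-68550000 with 3.38 ± 0.54 after LmnC RNAi and chr6:69700001-69750000 with 3.70 ± 0.62 after LmnB1 RNAi. Unlike Tcrb and Tcra/d, Igk showed no drop inside its window at the high end, where RefSeq orders the joining segments and Igkc. The last of its 10 parts had means of 2.81 ± 0.18, 1.98 ± 0.19 and 2.41 ± 0.21 (1011 fragments), beside 2.51 ± 0.18, 1.82 ± 0.18 and 1.95 ± 0.18 in the first (912 fragments). The LADs ended 11.5 kb and 31.9 kb beyond the window after LmnA and LmnC RNAi, and 0.42 kb inside it after LmnB1 RNAi. From the 50 kb inside these borders to the 50 kb outside, the mean fell by 2.31, 4.57 and 2.45. The contrast with Tcrb and Tcra/d thus depends on where the windows end.

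Tcrb lay in a longer LAD that began in its low flank or, after LmnA RNAi, below it. This LAD covered chr6:39736156-41464092 after LmnA RNAi, chr6:40098165-41462030 after LmnC and chr6:40096952-41464306 after LmnB1 RNAi. Its high-end border fell within 2.28 kb in the 3 maps, the closest match among the 10 borders compared between maps at the 4 loci. That border also had the largest step among the borders inside the windows, 5.22 after LmnA RNAi, 5.05 after LmnC and 4.99 after LmnB1 RNAi. Of all LAD borders in each map, 2.95%, 5.46% and 2.04% had a larger step. In RefSeq order the high end of Tcrb holds the D, J and C segments and Trbv31, followed by Ephb6, Trpv6 and Trpv5.

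The stretch outside LADs at that end was 50.6, 82.5 and 68.7 kb long, and a second LAD began at 41514709, 41544517 and 41533000 on chromosome 6 and ran on to 625, 626 and 622 kb beyond the window. Over the shortest version of the stretch, that of the LmnA RNAi map, the means were -2.21 ± 0.42, -3.01 ± 0.47 and -2.88 ± 0.41 after LmnA, LmnC and LmnB1 RNAi (SE over 126 fragments). All 3 maps were far below 0 there, whereas the LADs on its sides had 2.57 ± 0.08 and 2.49 ± 0.14 after LmnA RNAi. The last of the 10 parts of the window had -0.98 ± 0.34, -1.67 ± 0.38 and -1.80 ± 0.38 (153 fragments).

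Along the first LAD Tcrb was uneven. The third of its 10 parts had means of 2.03 ± 0.33, 0.29 ± 0.25 and 0.64 ± 0.33 (167 fragments), although it lay wholly in LADs. The seventh had 4.18 ± 0.44, 3.05 ± 0.42 and 2.40 ± 0.37 (235 fragments), the highest of the locus after LmnA and LmnC RNAi. The highest bins were chr6:41250001-41300000 with 4.43 ± 0.56 after LmnA RNAi and chr6:41300001-41350000 with 3.26 ± 0.60 after LmnC RNAi and 3.15 ± 0.51 after LmnB1 RNAi. RefSeq orders Trbv1 first and Trbv31 last. Between them it places trypsin genes such as Try4 and Prss2, which encode digestive proteases of the pancreas. Which of these bins hold them was not determined, for lack of an mm9 annotation.

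Tcra/d was divided into a large LAD, a short break, a second LAD and a stretch without LADs. The first LAD was chr14:52940491-54213975 after LmnA RNAi, chr14:52972408-54198364 after LmnC and chr14:52964760-54215497 after LmnB1 RNAi. The break was 75.7, 107.7 and 51.0 kb long. The second LAD was chr14:54289646-54666636, chr14:54306032-54646207 and chr14:54266455-54642059. Beyond it the last 233, 254 and 258 kb of the window were outside LADs. In RefSeq order this end of the locus holds the joining segments (60 Traj) and Trac, the constant gene of the alpha chain, followed by Dad1, which encodes a subunit of the oligosaccharyltransferase, and Abhd4.

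Over the break as called after LmnA RNAi the means were -0.78 ± 0.32 after LmnA RNAi, -1.60 ± 0.27 after LmnC and -0.98 ± 0.31 after LmnB1 RNAi (186 fragments). The second LAD of that map had 2.30 ± 0.16, 1.19 ± 0.16 and 1.66 ± 0.17 (935 fragments), and the first had 2.63 ± 0.10, 1.63 ± 0.08 and 1.70 ± 0.09 (3253 fragments). The second LAD was the lower one in the Dam-LmnB1 maps. After LmnB1 RNAi the 2 differed by less than these errors.

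The last of the 10 parts of Tcra/d was the lowest, with -1.13 ± 0.19, -2.62 ± 0.23 and -2.37 ± 0.22 (473 fragments), and none of it lay in LADs. The first had 3.51 ± 0.32, 1.85 ± 0.23 and 2.55 ± 0.25 (519 fragments). The high-coordinate end was therefore far below the low-coordinate end in every map. The lowest bin after LmnC and LmnB1 RNAi was chr14:54800001-54850000, with -3.47 ± 0.47 and -3.54 ± 0.48, beside -1.30 ± 0.32 after LmnA RNAi (123 fragments). After LmnA RNAi the lowest bin was the one after it, chr14:54850001-54900000, with -1.95 ± 0.42. The highest bins were chr14:53300001-53350000 after LmnA RNAi (4.08 ± 0.54) and chr14:54450001-54500000, within the second LAD, after LmnC RNAi (2.84 ± 0.47) and LmnB1 RNAi (3.39 ± 0.50).

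**Figure D2:**
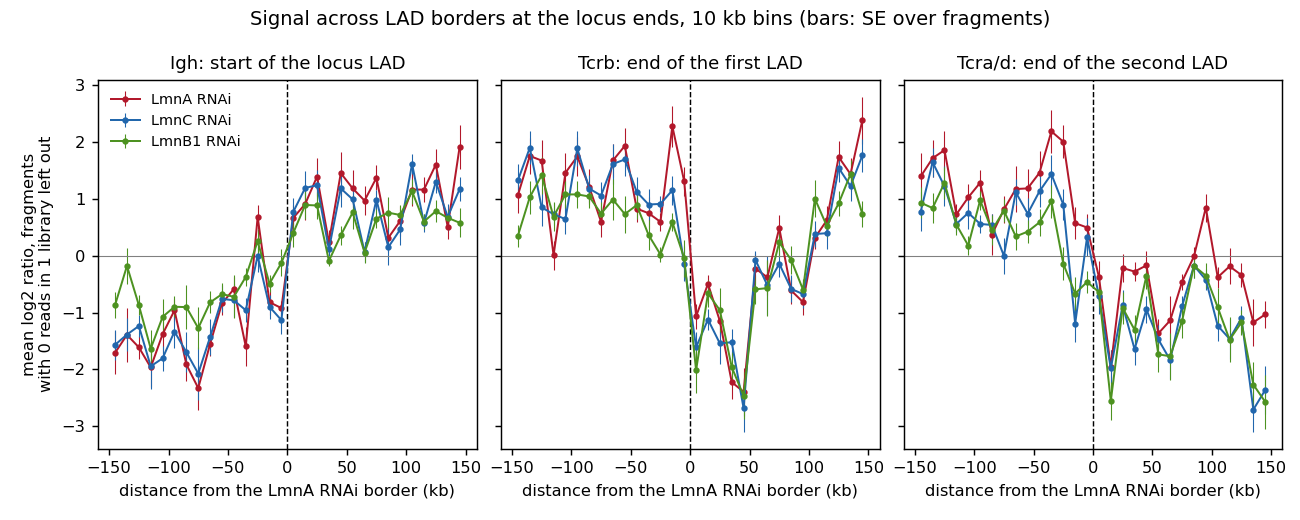
Mean log2 ratio in 10 kb bins (y axis, fragments with 0 reads in 1 library left out, bars are SE over fragments) against distance in kb from a LAD border of the LmnA RNAi map (x axis), for the low-end border of Igh, the border at the high end of the first Tcrb LAD and the border at the high end of the second Tcra/d LAD. All 3 maps turn from mostly below 0 to mostly above 0 at the Igh border and drop at the Tcrb border, while at Tcra/d the LmnC RNAi and LmnB1 RNAi lines first fall below 0 before the LmnA RNAi border.

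Against both flanks together, 3 of the 4 loci stood out by more than the SD over their bins. The mean of Igh exceeded that of both its flanks by 2.85 after LmnA RNAi, 2.98 after LmnC and 2.66 after LmnB1 RNAi. Igk exceeded its flanks by 2.15, 2.60 and 2.19, and Tcra/d by 2.26, 2.00 and 1.72. Against each flank alone the differences of these 3 loci ranged from 1.16, for Tcra/d against its low flank after LmnB1 RNAi, to 4.34, for Igh against its low flank after LmnC RNAi. Tcra/d exceeded its low flank by 1.39 after LmnC RNAi and 1.16 after LmnB1 RNAi, less than the SD over its bins, 1.63 and 1.62. The low flank of Igh, on the side of Tmem121 and Crip1, had means of -1.61, -2.29 and -1.57.

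Tcrb did not stand out in this way. It exceeded both flanks together by 0.61, 0.23 and 0.32, less than the SD over its bins. It was below its low flank by 0.13, 0.49 and 0.23 on the log2 scale, and above its high flank by 1.36, 0.95 and 0.88. With flanks of 500 kb instead of 1 Mb its difference was below 0 in every map, with -0.19, -0.68 and -0.51. Of the 20 bins of its low flank, 19 lay in LADs of all 3 maps.

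**Figure D3:**
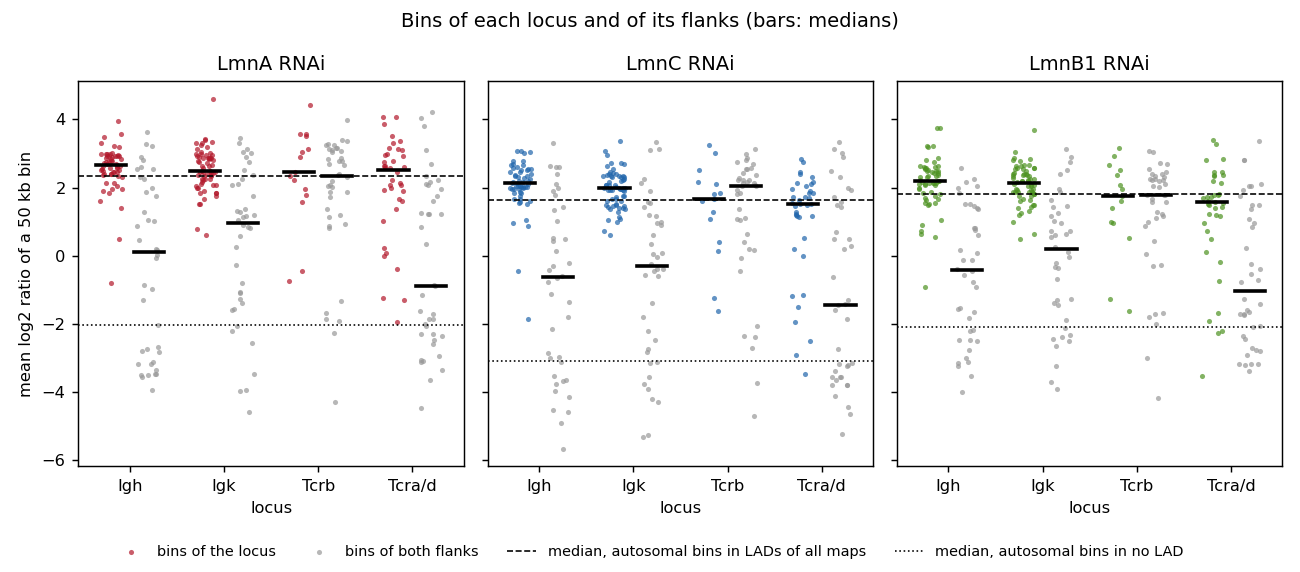
Mean log2 ratio of each 50 kb bin (y axis) of each locus (coloured) and of both its flanks (grey), in 1 panel per map, with medians as bars and the medians of autosomal bins in LADs of all maps (dashed) or of none (dotted) as lines. Bins of Igh and Igk cluster at or above the dashed line while their flanks spread down past the dotted line, and for Tcrb locus and flanks overlap.

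Compared with other LADs, the LAD parts of the 4 loci had means above the autosomal average, and Igh was on the high side in each map. Autosomal sequence in LADs of all 3 maps had a mean of 2.31 after LmnA RNAi, 1.53 after LmnC and 1.76 after LmnB1 RNAi, and autosomal sequence in no LAD had -2.06, -3.13 and -2.17. The parts of Igh in LADs of all 3 maps had 2.66, 2.17 and 2.23, and those of Igk 2.55, 1.96 and 2.11. For Tcrb the values were 2.78, 1.75 and 1.89, and for Tcra/d 2.64, 1.65 and 1.80. Every one of these means was above the autosomal mean of its map, by less than 1 SD over the locus bins in these LADs except for Igh after LmnC RNAi. By its mean the Igh LAD had rank 144 of 1768 LADs after LmnA RNAi, 113 of 1807 after LmnC RNAi and 243 of 1764 after LmnB1 RNAi, in lists of different length. LADs with a higher mean than that of Igh made up 8.09%, 6.20% and 13.7%. By length the Igh LAD had rank 140, 113 and 88 in the same lists, and the second Tcra/d LAD 1079, 1081 and 1067. The part of length in the ranks by mean was not tested. For Igk, whose LAD is in 2 pieces after LmnA RNAi, 16.1% and 13.9% were higher in that map, 17.5% after LmnC RNAi and 19.2% after LmnB1 RNAi. Those above the first Tcrb LAD made up 11.3%, 19.9% and 29.8%. Those above the first Tcra/d LAD made up 9.16%, 23.9% and 32.8%, and those above its second LAD 25.2%, 40.7% and 34.0%. These T cell receptor LADs were thus nearer to the middle of the lists than Igh in each map.

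The fragments behind these means differ in how they were read. A fragment with reads in 1 library alone takes an extreme value, since 1e-05 was added to both counts before the ratio, and such fragments set much of each mean. In the loci 22.7%, 19.4% and 19.7% of fragments were read in the fusion library alone after LmnA, LmnC and LmnB1 RNAi, and 4.45%, 5.78% and 5.36% in the Dam-only library alone. Over all placed chromosomes the shares were 16.9%, 13.0% and 14.2% fusion-only and 8.25%, 11.97% and 10.2% Dam-only. Fusion-only fragments of the loci held 16541, 11730 and 11398 reads, and Dam-only fragments 1747, 2781 and 2434.

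In Igh and Igk more fragments also carried no information on direction. Values at the map's constant, where both libraries had the same number of reads or none, made up 32.8%, 32.7% and 35.8% of Igh fragments and 33.5%, 34.2% and 36.8% of Igk fragments. In Tcrb they made up 27.2%, 28.1% and 30.9%, in Tcra/d 27.2%, 26.7% and 29.0%, and in autosomal LADs of all maps 28.4%, 29.2% and 30.5%. By length, which weights the means, such values made up less, with 10.8%, 11.2% and 13.2% in Igh. Fragments were also shorter in the immunoglobulin loci, with a median of 222 bp in Igh and 210 bp in Igk, against 243 bp in Tcrb, 267 bp in Tcra/d and 246 bp in those LADs. V segments are repeated sequences. The part of read placement among them in these values was not tested.

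**Figure D4:**
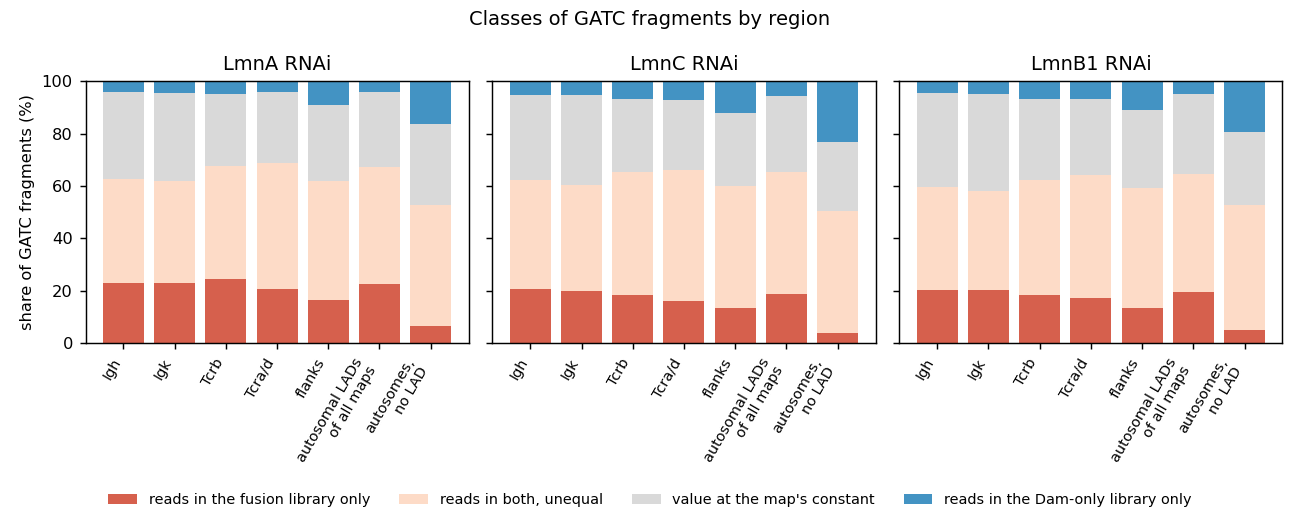
Share of GATC fragments in percent (y axis) by class, for the 4 loci, all flanks, autosomal LADs of all maps and autosomal sequence in no LAD, in 1 panel per map. Fusion-only fragments are near 20% in the loci and in LADs and Dam-only fragments are few, while the grey class at the constant is larger in Igh and Igk than in Tcrb and Tcra/d.

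Leaving out the fragments with 0 reads in 1 library lowered all means and kept them above 0. Igh then had 1.06, 0.96 and 0.79, and Igk 1.04, 0.89 and 0.73. Tcrb had 0.81, 0.66 and 0.55, and Tcra/d 0.78, 0.45 and 0.28. The order of the loci, with the immunoglobulin loci first and Tcra/d last, was the same in each map. Differences from the flanks were then 1.44, 1.42 and 1.20 for Igh, 1.15, 1.23 and 0.97 for Igk, 0.11, 0.18 and 0.19 for Tcrb and 1.15, 0.90 and 0.63 for Tcra/d.

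Dam-LmnB1 was the fusion in both the LmnA RNAi and the LmnC RNAi map, which differ in the shRNA. The mean was higher after LmnA RNAi by 0.50 in Igh, 0.57 in Igk, 1.02 in Tcrb and 1.07 in Tcra/d. Over all placed chromosomes it was higher by 1.00, and in autosomal LADs of all maps by 0.77. Over both flanks of each locus it was higher by 0.64 (Igh), 1.02 (Igk), 0.63 (Tcrb) and 0.81 (Tcra/d). The T cell receptor loci thus differed between the maps about as much as the genome, and more than their flanks and the autosomal LADs. The immunoglobulin loci differed less than the genome, their flanks and the autosomal LADs. Bins higher by over 0.5 after LmnA RNAi numbered 29 of 58 in Igh, 35 of 64 in Igk, 11 of 15 in Tcrb and 33 of 38 in Tcra/d, against 72.2% of all bins. Bins lower by over 0.5 numbered 3, 2, 0 and 0, against 2.81%.

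With each map centred on its median bin, the differences were -0.62 for Igh, -0.55 for Igk, -0.10 for Tcrb and -0.05 for Tcra/d, and -0.35 for autosomal LADs of all maps. The direction therefore depends on the scaling, and the shift between the medians of all bins, 1.29 after LmnA RNAi and 0.17 after LmnC RNAi, is larger than any of the 4 differences. After centring, bins higher by over 0.5 numbered 3, 2, 2 and 8 in Igh, Igk, Tcrb and Tcra/d, against 21.3% of all bins, and bins lower by over 0.5 numbered 34, 36, 4 and 9, against 33.3%. Without fragments with 0 reads in 1 library the differences as deposited shrank to 0.10, 0.15, 0.15 and 0.32, beside 0.28 over all placed chromosomes. Igh, Igk and Tcrb then lay below the genome's value and Tcra/d slightly above it. Their flanks then had 0.08, 0.23, 0.22 and 0.07, so that Igk and Tcrb lay below their flanks and Igh and Tcra/d above. Bins higher by over 0.5 were then 2, 2, 1 and 7, against 23.9%, and none was lower by over 0.5, against 0.334%.

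**Figure D5:**
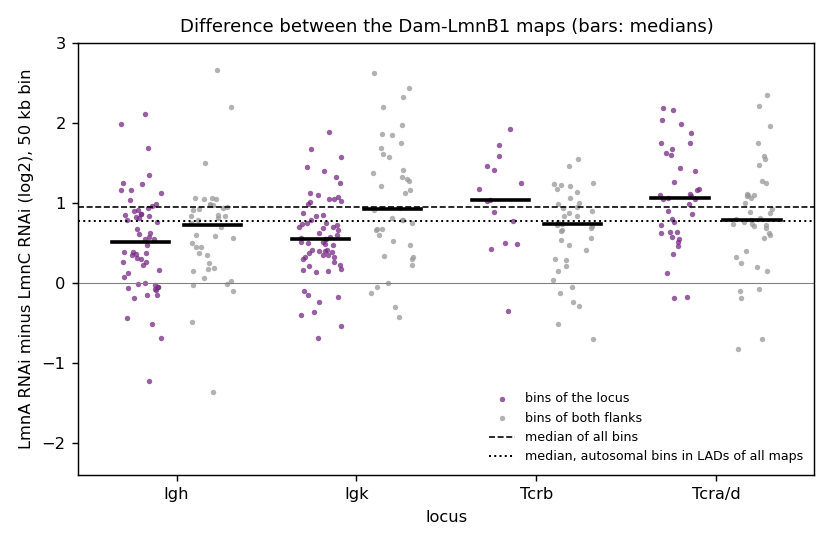
LmnA RNAi minus LmnC RNAi difference of the mean log2 ratio (y axis) for each 50 kb bin of each locus (purple) and of both its flanks (grey), with medians as bars and the medians of all bins (dashed) and of autosomal bins in LADs of all maps (dotted) as lines. Medians of Igh and Igk, near 0.5, lie below both lines, and those of Tcrb and Tcra/d, near 1.0, above them.

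Differences of single bins carried large errors. In Igh the largest excess after LmnA RNAi was at chr12:114600001-114650000, with 2.11 ± 1.05 (SE of the difference), and the next at chr12:114750001-114800000, with 1.98 ± 0.61. The bin chr12:115250001-115300000 went the other way, with -1.23 ± 0.77. In Igk the largest excess was 1.89 ± 0.82, at chr6:70550001-70600000, and 1.67 ± 0.72 at chr6:69550001-69600000. Tcrb reached 1.92 ± 0.79 at chr6:41350001-41400000. Without fragments with 0 reads in 1 library the Igh bins, in the order named, had differences of 0.33, 0.57 and -0.37. The Igk bins then had 0.12 and 0.41, and the Tcrb bin had -0.045.

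In Tcra/d the bin with the largest difference lay outside LADs, in the stretch at the high end of the window. It was chr14:54800001-54850000, with 2.18 ± 0.57 between the maps, and the difference without fragments with 0 reads in 1 library was 0.83. The next, chr14:53150001-53200000, lay in the first LAD, with 2.15 ± 0.72, and 0.40 without such fragments. No bin of Tcra/d and none of Tcrb was lower by over 0.5 after LmnA RNAi. The lowest difference was -0.19 ± 0.55 in Tcra/d and -0.36 ± 0.87 in Tcrb.

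For the LmnB1 RNAi map, made with Dam-LmnA, which of the other maps it was closer to depended on the scaling. LmnC RNAi minus LmnB1 RNAi was -0.08 in Igh, -0.14 in Igk, -0.13 in Tcrb and -0.18 in Tcra/d, beside -0.54 over all placed chromosomes and -0.23 in autosomal LADs of all maps. LmnA RNAi minus LmnB1 RNAi was 0.42, 0.43, 0.89 and 0.89, beside 0.46 over all placed chromosomes. With the maps centred, LmnC RNAi minus LmnB1 RNAi was 0.40, 0.34, 0.35 and 0.30, and LmnA RNAi minus LmnB1 RNAi -0.22, -0.21, 0.25 and 0.25. As the fusion differs as well as the target, these values are set beside the others and not compared further. Across bins the Pearson correlation of LmnA RNAi with LmnC RNAi was 0.65 in Igh, 0.62 in Igk, 0.91 in Tcrb and 0.93 in Tcra/d, over 58, 64, 15 and 38 bins that share their libraries. Spearman's rho was 0.10, 0.59, 0.82 and 0.77, so by rank the bins of Igh hardly followed each other between the maps. Without fragments with 0 reads in 1 library the Pearson correlation was 0.82, 0.70, 0.97 and 0.97. The higher values are those of the loci whose signal spans LADs and sequence outside them. With all fragments, autosomal bins in LADs of all 3 maps had a Pearson correlation of 0.73 and a rho of 0.71 between these maps. Both Igh and Igk lay below these values.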

How the data were processed

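DamID was performed in 6 libraries of MEFs, which the authors combined into 3 maps of 1 Dam-only and 1 fusion library each. Alignment used Bowtie and mm9, per the submitters' processing notes. Versions, read filters, the ratio step and the LAD caller: not given in the sources used here. All deposited values are on a log2 scale, 1 per GATC fragment. Their steps show log2 of fusion over Dam-only reads, each plus 1e-05, plus a constant of -0.34 (LmnA RNAi), 0.21 (LmnC RNAi) or -0.15 (LmnB1 RNAi). A size above 12 after subtracting the constant was read as 0 reads in 1 library. Ratios were deposited, so the depth of each library is unknown and no counting interval is given. The deposited LAD lists give start and end in bp, printed as in the files; whether starts count from 0 or 1 was not settled. Fragments on unplaced sequences (166253) were left out.

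Fragments were assigned by midpoint. Means were weighted by length, and 50 kb bins needed 50% cover. The code was tested on simulated data. Python 3.11.15, numpy 2.4.6 and pandas 2.3.3 were used. Named bins are the highest and lowest of each locus in each map and those with the largest LmnA RNAi minus LmnC RNAi differences; named borders are those in the windows. Loci, lists and rules were chosen with earlier results of these data known. Alternatives tried were other treatments of extreme values, centring, weighting, window edges, flank size and LAD length.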

Additional observations from a re-analysis of the deposited data

How the results depend on the processing

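Of the 192 alternative values computed for 40 results, 135 stayed within a limit, 50 moved further and 7 changed sign. The limit was 1 SD over bins or, for LAD shares, the 95% interval over bins. That SD was 0.56 to 0.79 in Igh and Igk and 1.40 to 1.63 in Tcrb and Tcra/d. The same shift could thus count as moved in the immunoglobulin loci and not in the T cell receptor loci. The counts therefore do not rank the loci by how firm their values are. With flanks of 500 kb the Tcrb difference from its flanks turned to -0.19, -0.68 and -0.51 (LmnA, LmnC and LmnB1 RNAi, the order used throughout), that of Igh rose to 4.42, 4.44 and 3.68 and that of Tcra/d to 3.99 and 3.80 in the first 2 maps. Centring turned LmnA RNAi minus LmnC RNAi to -0.62 (Igh), -0.55 (Igk), -0.10 (Tcrb) and -0.052 (Tcra/d), and lowered Igh to 1.26 and Igk to 1.23 after LmnA RNAi and Igk to 1.44 after LmnB1 RNAi. With equal weights Igh had 3.60, 3.38 and 3.11 and Igk 3.57, 3.20 and 3.01. Without fragments with 0 reads in 1 library Igh had 1.06, 0.96 and 0.79, Igk 1.04, 0.89 and 0.73, and Tcrb 0.81 after LmnA RNAi. Differences from the flanks were then 1.44, 1.42 and 1.20 (Igh) and 1.15, 1.23 and 0.97 (Igk), and LmnA RNAi minus LmnC RNAi 0.15 (Tcrb) and 0.32 (Tcra/d). With values limited to within 3 of the constant the same results were 1.08, 1.04 and 0.90, 1.06, 0.98 and 0.85, 0.88, then 1.43, 1.46 and 1.28, 1.11, 1.26 and 1.04, and 0.15 and 0.29. Without the outer 100 kb of the window, LADs covered 100% of Igh and of Tcrb in each map. By construction these settings give extreme values less weight, short fragments more, or other sequence; further causes were not tested. Odd or even fragments alone, leaving out values at the constant, shares of bp and LADs of 200 kb or more moved none of their results beyond those limits. No paired analysis was possible because each group holds 1 library and no test was made. Depth is unknown, and the median SE of a 50 kb bin, 0.42 to 0.50 over the loci and maps, limits what single bins show.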
